A study of Mus musculus with 6 samples.

Results

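The report describes 7 mouse genes that set the balance between making and removing fructose 1,6-bisphosphate: the fructose bisphosphatases Fbp1 and Fbp2, the bifunctional enzymes Pfkfb1, Pfkfb2, Pfkfb3 and Pfkfb4, and Tigar. They were chosen by family from the 23896 genes with counts, and for each gene the RefSeq transcript with the highest mean count over all libraries stood for the gene. That choice of transcript used the mean over days and not the difference between them. The family itself, and the lists of related genes used below, were chosen with earlier results of these data known. The libraries are poly(A)-selected mRNA-seq of MEL cells, a mouse erythroleukemia cell line blocked at an early erythroid stage. Cultures were sampled before DMSO (day 0) and after 2 and 4 days in medium with 2% DMSO, an inducer of erythroid maturation, and each day has 2 cultures, so there are 6 libraries. All groups come from 1 cell line, and no culture kept without DMSO until day 2 or 4 was analysed here, so that DMSO and time in culture cannot be told apart.

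Glycolysis and gluconeogenesis run in opposite directions through the step between fructose 6-phosphate and fructose 1,6-bisphosphate. Phosphofructokinase (PFK-1) adds the phosphate, and fructose bisphosphatase, the product of Fbp1 in liver and kidney and of Fbp2 in muscle, removes it. The small regulator fructose 2,6-bisphosphate stimulates PFK-1 and inhibits fructose bisphosphatase. The PFKFB enzymes both make it and break it down, whereas TIGAR is a phosphatase that lowers it and thereby favors the pentose phosphate pathway. Red cell precursors end with glycolysis as their source of ATP and the pentose phosphate pathway as a main source of NADPH.

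The libraries held between 35294930 and 53899476 counts on transcripts. Levels are given as CPM, the count scaled to a common library size with TMM factors, which ranged from 0.921 to 1.07. The 3 comparisons are called the early step (day 0 to day 2), the late step (day 2 to day 4) and the net change (day 0 to day 4), and a negative fold change means a fall over that time. A gene is called at an edgeR adjusted p below 0.05. Over 12381 tested genes 62.5% were called in the early step (31.0% higher and 31.5% lower), 30.3% in the late step (14.0% higher, 16.2% lower) and 71.8% in the net change (35.5% higher, 36.4% lower). Scaling by total counts alone turned the early split of 3841 higher and 3902 lower genes into 5001 and 2881. It turned the late split of 1739 and 2010 into 1228 and 2532. The summed level of 9 erythroid markers was 1007 to 1053 CPM before DMSO, 4237 to 5034 CPM after 2 days and 17525 to 19623 CPM after 4 days. Of these markers 8 rose in the net change, whereas Klf1, an erythroid transcription factor, fell by 0.54 on the log2 scale. In bulk libraries fewer cells of a type and less RNA per cell cannot be told apart.

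To show the DNA in front of the silent and the called genes, the 250 bases before the RefSeq start site of Fbp1, Fbp2, Pfkfb1 and Pfkfb2 are printed 5′ to 3′ on the gene's strand (RefSeq, GRCm38.p6). Where a gene has several starts, the one nearest to the start of the counted transcript is shown. Capitals mark short motifs on either strand. The letters AGATAA are a site of GATA factors. CAACTG is a site of MYB proteins. The classical promoter element near many start sites reads TATAAA. The GC box, a site of SP1-like proteins, reads GGGCGG. The core of the hypoxia response element reads ACGTG. The windows lie at chr13:62888283-62888532 (minus strand), chr13:62858401-62858650 (minus strand), chrX:150589666-150589915 (plus strand) and chr1:130715822-130716071 (minus strand), in the order printed.
Fbp1: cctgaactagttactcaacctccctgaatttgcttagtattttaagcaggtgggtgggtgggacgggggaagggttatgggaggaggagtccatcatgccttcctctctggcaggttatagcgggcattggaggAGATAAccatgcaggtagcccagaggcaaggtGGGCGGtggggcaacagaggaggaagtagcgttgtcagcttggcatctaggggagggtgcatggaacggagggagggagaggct
Fbp2: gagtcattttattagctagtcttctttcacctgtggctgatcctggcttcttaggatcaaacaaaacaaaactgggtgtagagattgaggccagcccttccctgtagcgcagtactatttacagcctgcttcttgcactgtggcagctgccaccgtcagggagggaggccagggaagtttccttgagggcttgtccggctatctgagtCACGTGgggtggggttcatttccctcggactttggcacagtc
Pfkfb1: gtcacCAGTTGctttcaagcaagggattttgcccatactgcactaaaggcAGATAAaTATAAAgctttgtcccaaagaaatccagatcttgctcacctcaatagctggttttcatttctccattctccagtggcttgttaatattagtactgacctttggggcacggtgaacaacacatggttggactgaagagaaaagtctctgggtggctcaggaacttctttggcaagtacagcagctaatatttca
Pfkfb2: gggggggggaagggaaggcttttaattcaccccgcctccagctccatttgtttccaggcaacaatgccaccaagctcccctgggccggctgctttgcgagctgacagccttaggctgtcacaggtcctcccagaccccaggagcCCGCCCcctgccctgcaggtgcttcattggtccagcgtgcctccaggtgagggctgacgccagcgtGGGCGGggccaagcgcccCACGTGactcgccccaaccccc

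The 6 letters CACGTG in the Fbp2 window, beginning at position -42 from the start site, hold the hypoxia core on both strands, so that these 2 matches overlap. The Pfkfb2 window held the same 6 letters at position -22 and a GC box at -106 and at -40. In the Pfkfb1 window a GATA motif began at -200 and was followed at -193 by a TATA motif, and a MYB match began at -245. The Fbp1 window held a GATA motif at -116 and a GC box at -84. Among 32851 RefSeq promoters of 300 bases, which also take in the 50 bases after the start, the GATA motif was found in 11.2%, the MYB motif in 13.7%, the TATA motif in 13.6%, the GC box in 35.7% and the hypoxia core in 19.6%. These matches describe letters only, and neither binding nor chromatin was analysed here. The 300-base window of Pfkfb1 held 1 CpG, those of Fbp1 and Fbp2 held 6 each and that of Pfkfb2 held 14, beside a median of 7 over all promoters. The windows of the 4 listed Pfkfb1 starts held 1 to 20 CpG and those of the 3 Pfkfb2 starts 1 to 14. The Pfkfb1 window with 20 CpG had GC boxes and no GATA, MYB or TATA match, and the Pfkfb2 window with 1 CpG had a GATA match. Which start these cells use was not tested.

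Fbp2 was the member that changed most, and nearly all of it was lost within the first 2 days in DMSO. Fbp2 (NM_007994, gene at chr13:62836884-62858400) had 1077 and 1182 counts in the day 0 libraries, 14 and 8 after 2 days, and 4 and 4 after 4 days. On the CPM scale these were 26.4 and 23.8, then 0.335 and 0.163, then 0.111 and 0.0884. Both day 0 libraries stood far above all others, and no 2 days overlapped.

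Mean Fbp2 levels over the 2 cultures were 25.1 ± 1.83 CPM before DMSO, 0.249 ± 0.122 after 2 days and 0.0996 ± 0.0159 after 4 days (± SD). The log2 fold change was -6.67 ± 0.24 (SE) in the early step (edgeR quasi-likelihood test, Benjamini-Hochberg adjusted p = 4.98e-08) and its net value was -7.95 ± 0.28 (edgeR adjusted p = 8.22e-09). From the summed counts, Fbp2 was 103-fold lower at day 2, with an exact 95% interval of 68.0 to 165 that covers counting error only, and 254-fold lower at day 4 (129 to 589). The level left was 0.969% of that at day 0 by day 2 and 0.394% by day 4. Ranked over the 12381 tested genes from the deepest fall, Fbp2 was number 14 in the early step and number 21 in the net change. These ranks only describe the fall, since Fbp2 passed the filter on low counts through its day 0 libraries. Genes low on every day are not ranked.

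In the late step the log2 fold change of Fbp2 was -1.28 ± 0.52 (SE), which did not pass after adjustment (edgeR adjusted p = 0.0857). The unadjusted p was 0.0325, and this step rests on 4 to 14 counts per library. The change over the second step differed from that over the first by 5.39 ± 0.85 on the log2 scale (edgeR, adjusted p = 0.00128), where 30.0% of all tested genes also had a called difference between steps. Fbp2 was the only one of the 6 tested members with such a call, although Pfkfb2 also passed with total counts, and Pfkfb2 and Pfkfb3 did without day 0 replicate 1. Across the alternatives tried, the net change stayed between -8.11 and -7.79 and the difference between steps between 4.48 and 6.53.

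Fbp1, the liver and kidney isozyme, was not detected above the floor. Fbp1 (NM_019395, gene at chr13:62864753-62888298) lies 6.35 kb from Fbp2, and its 6 libraries held 0, 1, 0, 0, 0 and 0 counts. A count of 0 allows up to 3 counts, which is 0.0611 to 0.0831 CPM in the libraries with a count of 0. Fbp1 did not pass the filter on low counts and was not tested, so 6 of the 7 members were. No 35-base word of the counted Fbp1 or Fbp2 transcript occurred in the transcripts of another gene.

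Markers of the tissues known for the Fbp2 and Fbp1 enzymes were low or absent in part. Skeletal muscle genes Ckm, Tnnt3 and Myod1 had at most 3 counts in every library, 3 of 7 markers on that list, and the list summed to 5.79 to 6.53 CPM before DMSO, 8.02 to 8.04 after 2 days and 4.04 to 4.05 after 4 days. Most of that sum was Des (desmin), which went from 5.79 to 7.83 to 3.42 CPM, a net log2 fold change of -0.76 ± 0.16 (SE, edgeR adjusted p = 0.00117). Acta1 (skeletal actin) went the other way to Fbp2, from 0.227 to 0.614 CPM, with a net log2 fold change of 1.38 ± 0.40 (SE, edgeR adjusted p = 0.00901). Of 7 hepatocyte markers 6 were at that floor (Alb, Apoa2, Ttr, Serpina1a, Tat and Cyp2e1). The remaining one, Apoa1 (a lipoprotein component), stood at 8.45 CPM before DMSO, then at 0.186 and 0.335, and so moved with Fbp2. The myeloid list summed to 7.03 to 7.55 CPM before DMSO, 2.95 to 3.35 after 2 days and 2.59 to 3.27 after 4 days, with Itgam, Elane and Ly6c1 of its 9 genes at the floor. Its largest part before DMSO was Cd68, which went from 4.89 to 0.915 to 1.44 CPM, whereas Lyz2 went from 0.352 to 1.47 to 0.346. Of its 5 tested genes 3 were lower and 1 higher in the early step (80.0% called, background 62.5%). The part of other cells in the Fbp2 result was not tested.

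**Figure D1:**
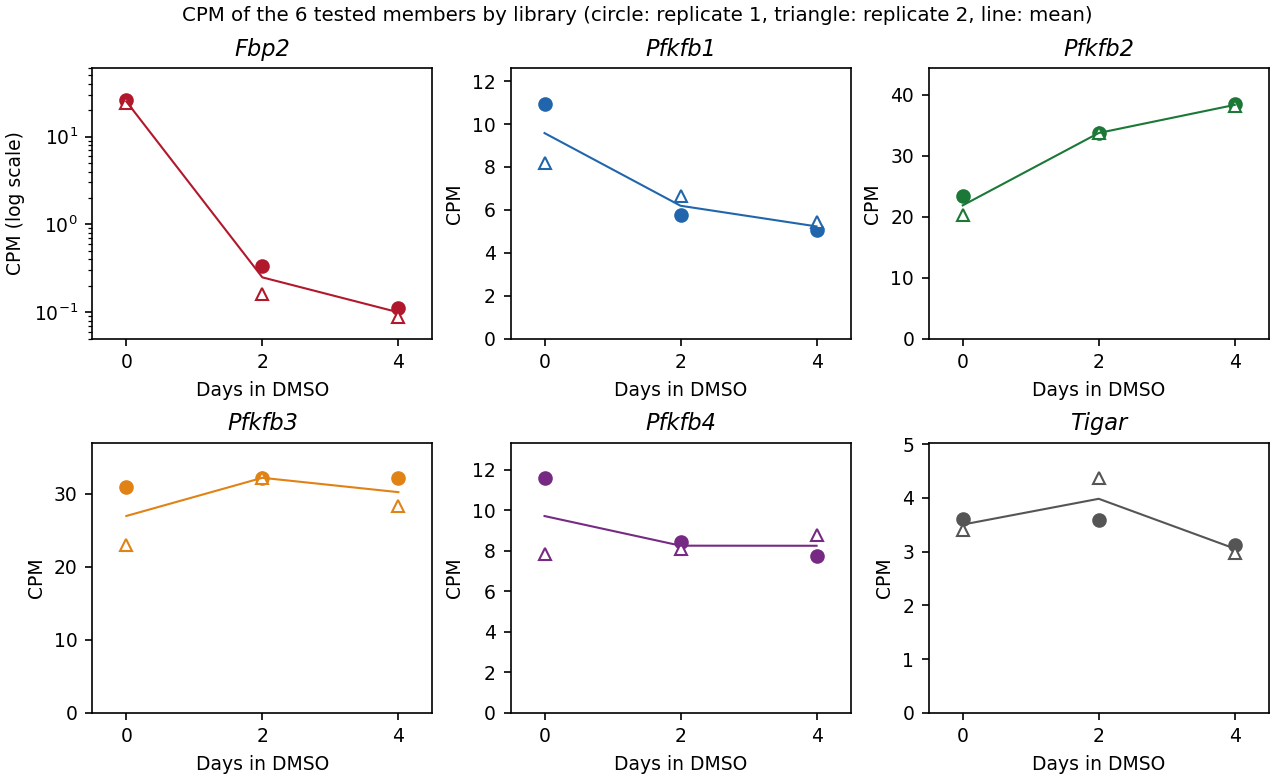
Each panel plots 1 gene's CPM (vertical axis) against days in DMSO (horizontal axis) for the 6 libraries, with a circle for replicate 1, a triangle for replicate 2 and a line through the means; the Fbp2 axis is logarithmic and the others start at 0. Fbp2 drops from 25.1 CPM to 0.249 by day 2, Pfkfb2 climbs from 21.9 to 38.3, and the day 0 replicates lie apart for Pfkfb3 and Pfkfb4.

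Among the PFKFB genes, Pfkfb2 rose and Pfkfb1 fell, while Pfkfb3 and Pfkfb4 gave no call. Taking all 6 tested members, 1 was called higher and 2 lower in the early step, and likewise in the net change. The early split turned to 2 higher and 1 lower with total counts and without day 0 replicate 1, it was 1 higher and 1 lower without day 2 replicate 1, and without day 0 replicate 2 it was 1 higher and 3 lower. These counts of 3 of 6 stand beside backgrounds of 62.5% and 71.8%, and lie below the share of all genes called. In the late step edgeR and DESeq2 each called 0 of 6, and 1 (Fbp2) had an unadjusted edgeR p below 0.05, beside a background of 30.3%. The median log2 fold change of the tested members was -0.02 early, -0.17 late and -0.21 net, and that of all tested genes was 0.01, -0.00 and -0.02.

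Pfkfb2 encodes the isozyme first known from heart, whose activity is raised by phosphorylation. Pfkfb2 (NM_008825, gene at chr1:130689043-130729253) had 955 and 1008 counts before DMSO, 1408 and 1658 after 2 days, and 1392 and 1725 after 4 days. On the CPM scale these were 23.4 and 20.3, then 33.7 and 33.7, then 38.6 and 38.1. Every later library stood above both day 0 libraries, and the day 4 libraries above those of day 2.

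The mean level of Pfkfb2 over 2 cultures was 21.9 ± 2.19 CPM before DMSO, then 33.7 ± 0.0153 and 38.3 ± 0.319 (± SD). With 2 libraries an SD says little about the spread, so that of 0.0153 is not a mark of precision. It rose in the early step with a log2 fold change of 0.63 ± 0.12 (SE, edgeR adjusted p = 0.000797), and the net rise was 0.81 ± 0.12 (edgeR adjusted p = 8.33e-05). The late step was 0.18 ± 0.12 and did not pass (edgeR adjusted p = 0.247). All 4 RefSeq transcripts of Pfkfb2 were called higher in both comparisons with day 0, by 0.38 to 0.63 at day 2 and 0.58 to 0.81 at day 4. The upper ends are those of the counted transcript alone. The others lay at 0.38 to 0.39 at day 2 and 0.58 to 0.65 at day 4. The counted transcript shares 1241 of its 2849 exon bases (43.6%) with Gm29427, an overlapping gene model on the same strand, so reads there cannot be assigned to Pfkfb2 alone. It held 8146 counts over all libraries, and the other Pfkfb2 transcripts held 3739 to 4812, so the level of Pfkfb2 beside other genes depends on the transcript. The difference between the steps of Pfkfb2, -0.44 ± 0.20 (edgeR adjusted p = 0.117), passed with total counts (-0.72, adjusted p = 0.0194). Without day 0 replicate 1 it was -0.55.

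Pfkfb1 encodes the liver isozyme, a target of protein kinase A, and it fell. Pfkfb1 (NM_008824, gene at chrX:150587445-150643878) had 447 and 407 counts before DMSO, 240 and 326 after 2 days, and 182 and 245 after 4 days. As CPM these were 11.0 and 8.20, then 5.75 and 6.64, then 5.04 and 5.41, so that libraries of different days did not overlap.

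The mean level of Pfkfb1 over 2 cultures was 9.58 ± 1.95 CPM before DMSO, then 6.19 ± 0.627 and 5.23 ± 0.262 (± SD). The net log2 fold change was -0.87 ± 0.18 (SE, edgeR adjusted p = 0.001). It was -0.62 ± 0.17 in the early step (edgeR adjusted p = 0.00874) and -0.24 ± 0.18 in the late step (edgeR adjusted p = 0.324). The early call was lost without day 0 replicate 1 (-0.40, edgeR adjusted p = 0.051), without day 2 replicate 1 (-0.53, adjusted p = 0.092) and with total counts (-0.43, adjusted p = 0.052), whereas the net call was lost only under the added size limit of 1 on the log2 scale. Alas2, the erythroid heme synthesis enzyme whose gene lies 16.8 kb away, rose by 4.21 on the log2 scale in the net change. Of the 5 tested genes within 500 kb of Pfkfb1, 2 were lower and 2 higher at day 4, beside 36.4% lower and 35.5% higher over all tested genes.

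Pfkfb3, the inducible and widely expressed isozyme with a strong kinase, gave no call in any comparison. Pfkfb3 (NM_001177753, gene at chr2:11471430-11554071) had 1259 and 1143 counts before DMSO, 1343 and 1581 after 2 days, and 1158 and 1282 after 4 days. As CPM these were 30.9 and 23.0, then 32.2 and 32.2, then 32.1 and 28.3. The day 0 and day 4 libraries overlapped, and both day 2 libraries lay just above all others.

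Mean levels of Pfkfb3 over 2 cultures were 27.0 ± 5.54, then 32.2 ± 0.00795, then 30.2 ± 2.66 CPM (± SD). As for Pfkfb2, so small an SD of 2 libraries is not a mark of precision. The early log2 fold change was 0.26 ± 0.15 (SE, edgeR adjusted p = 0.145) and the net change 0.17 ± 0.15 (edgeR adjusted p = 0.326). Both depended on the day 0 library kept: without replicate 1 the changes were 0.48 and 0.39, and without replicate 2 the net change was -0.04. With total counts the early change passed (0.45, edgeR adjusted p = 0.0216). The 8 RefSeq transcripts of Pfkfb3 held 4 distinct sets of counts and moved alike, by 0.26 to 0.27 early and 0.16 to 0.17 net. In the late step the change was -0.09 ± 0.15 (edgeR adjusted p = 0.666).

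Pfkfb4, the isozyme first found in testis, varied more between the day 0 cultures, relative to its mean, than the other tested members. Pfkfb4 (NM_173019, gene at chr9:108988272-109032236) had 473 and 388 counts before DMSO, 352 and 396 after 2 days, and 279 and 396 after 4 days. As CPM these were 11.6 and 7.82, then 8.43 and 8.06, then 7.73 and 8.75, and the days overlapped. Means over 2 cultures were 9.71 ± 2.67, 8.25 ± 0.262 and 8.24 ± 0.721 CPM (± SD).

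The log2 fold change of Pfkfb4 was -0.23 ± 0.19 (SE) both early and net (edgeR adjusted p = 0.294 and 0.283) and 0.00 ± 0.19 in the late step (adjusted p = 0.996). Its direction depended on which day 0 library was kept. Without day 0 replicate 2 both changes became -0.50, and without day 0 replicate 1 both became 0.08. The day 0 cultures also differed in other glycolytic genes and not in 1 direction, with Gpi1 at 215 and 389 CPM and Aldoa at 1329 and 862 CPM in replicates 1 and 2.

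Tigar, a relative of the phosphoglycerate mutases that acts as a bisphosphatase, was expressed at a low and nearly even level. Tigar (NM_177003, gene at chr6:127085116-127109552) had 147 and 169 counts before DMSO, 150 and 215 after 2 days, and 113 and 135 after 4 days. As CPM these were 3.60 and 3.41, then 3.59 and 4.38, then 3.13 and 2.98. The day 4 libraries lay below those of both other days, which overlapped each other.

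Means of Tigar over 2 cultures were 3.50 ± 0.140, 3.98 ± 0.554 and 3.06 ± 0.105 CPM (± SD). The log2 fold change was 0.19 ± 0.18 (SE) in the early step (edgeR adjusted p = 0.379), -0.39 ± 0.18 in the late step (adjusted p = 0.133) and -0.20 ± 0.19 net (adjusted p = 0.354). None of the 15 alternatives gave a call for Tigar in these comparisons, with adjusted p of at least 0.0794. Platr31, on the opposite strand, overlaps 115 bases (3.15%) of its exons.

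**Figure D2:**
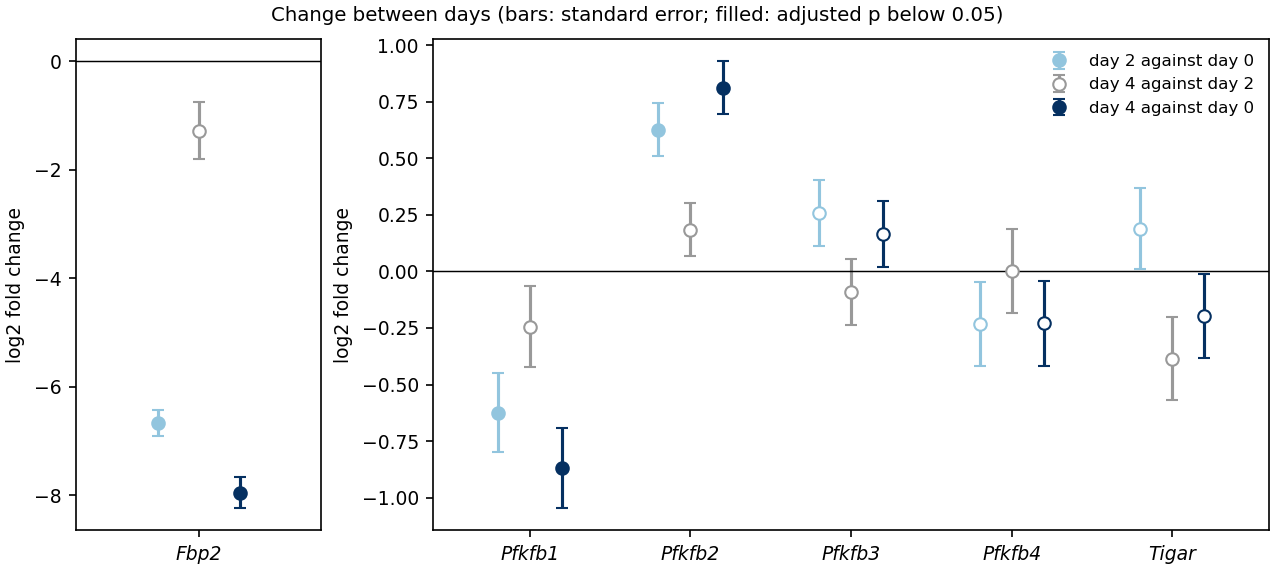
Points are log2 fold changes (vertical axis) of the 6 tested genes for the early step, the late step and the net change, with bars for 1 standard error on either side and filled points for an edgeR adjusted p below 0.05; Fbp2 has its own scale. Fbp2, Pfkfb1 and Pfkfb2 have filled points early and net, at -7.95, -0.87 and 0.81 net, and no gene has one in the late step.

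Levels of different genes can be set side by side only per length. Per kilobase of transcript, Fbp2 led at day 0 with 18.5 ± 1.35 CPM per kb, followed by Pfkfb3 (12.2 ± 2.50), Pfkfb2 (7.67 ± 0.770), Pfkfb1 (5.51 ± 1.12), Pfkfb4 (2.78 ± 0.766) and Tigar (0.960 ± 0.0384). Per kilobase of coding sequence the order at day 0 was the same, from 24.7 ± 1.80 for Fbp2 to 4.34 ± 0.174 for Tigar, where Pfkfb3 (16.2 ± 3.33) and Pfkfb2 (14.1 ± 1.41) lay within their spread, as did Pfkfb1 (7.13 ± 1.45) and Pfkfb4 (6.90 ± 1.90). At day 4 Fbp2 stood last, at 0.0736 ± 0.0117 CPM per kb of transcript, apart from Fbp1, which had no count there. The Pfkfb3 values per kilobase of transcript used a length of 2216 bases. A Pfkfb3 transcript of 4756 bases tied with it in counts and would give a lower level. The place of Pfkfb3 above Pfkfb2 per kilobase of transcript therefore depends on the transcript chosen.

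The summed PFKFB level was 28.1 ± 5.16 CPM per kb of transcript before DMSO, then 32.3 ± 0.294 and 32.5 ± 0.953 (± SD over 2 cultures), while its makeup shifted from Pfkfb1 to Pfkfb2. The share of Pfkfb2 went from 25.9% and 29.1% in the day 0 libraries through 36.9% and 36.5% after 2 days to 40.9% and 42.1% after 4 days. Pfkfb1 went from 19.8% and 19.3% through 10.3% and 11.7% to 8.75% and 9.79%. Both shares separated day 0 from the later days in every library. Over days 0, 2 and 4 Pfkfb3 took 43.1% ± 0.977, 45.0% ± 0.399 and 42.0% ± 2.46, and Pfkfb4 took 9.81% ± 0.924, 7.32% ± 0.300 and 7.29% ± 0.851. The shares are a description, since an exact permutation test of 2 against 2 libraries could not pass.

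Which isozyme led at day 4 depended on the length and transcript used. In 396 pairs of transcripts of 1 gene with equal coding exons and lengths at least 500 bases apart, the median length ratio was 1.58 but the median count ratio was 1.00, and 355 pairs (89.6%) had counts within 10% of each other, so the deposited counts followed the length outside the coding exons little. With coding length, an alternative added after the data were seen, Pfkfb2 took 32.0%, 42.2% and 46.9% at days 0, 2 and 4, and Pfkfb3 took 36.5%, 37.5% and 34.5%. On that scale Pfkfb2 passed Pfkfb3 by day 2, whereas per kilobase of transcript they were level at day 4 (41.5% ± 0.873 and 42.0% ± 2.46). Both orders rest on the Pfkfb2 transcript that overlaps Gm29427, whose other transcripts held fewer counts. The second also rests on the 2216-base Pfkfb3 transcript, and its share would be lower with the tied one of 4756 bases. Other transcripts of these genes were not set against each other per kilobase of coding sequence. The fall in the share of Pfkfb1 and the rise in that of Pfkfb2 from day 0 to day 4 were seen with each length and with the transcript of the lowest mean count.

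**Figure D3:**
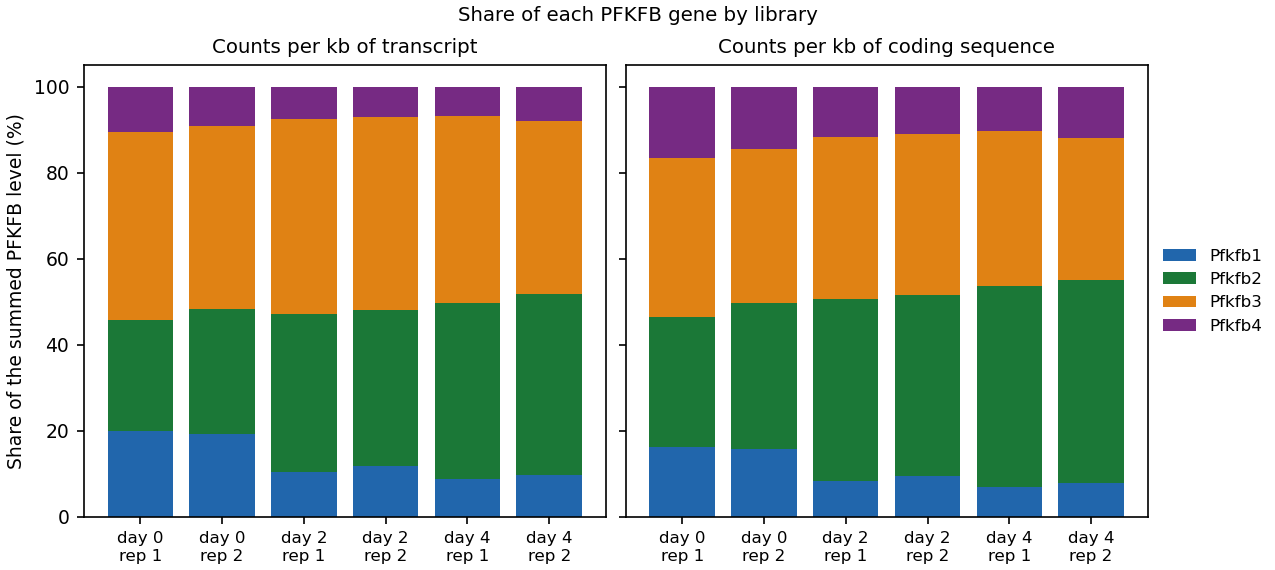
Stacked bars show the share of each PFKFB gene in the summed PFKFB level (vertical axis, percent) in each of the 6 libraries, per kilobase of transcript on the left and of coding sequence on the right. Within each day the replicates look alike, the Pfkfb2 block widens and the Pfkfb1 block narrows from day 0 to day 4.

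**Figure D4:**
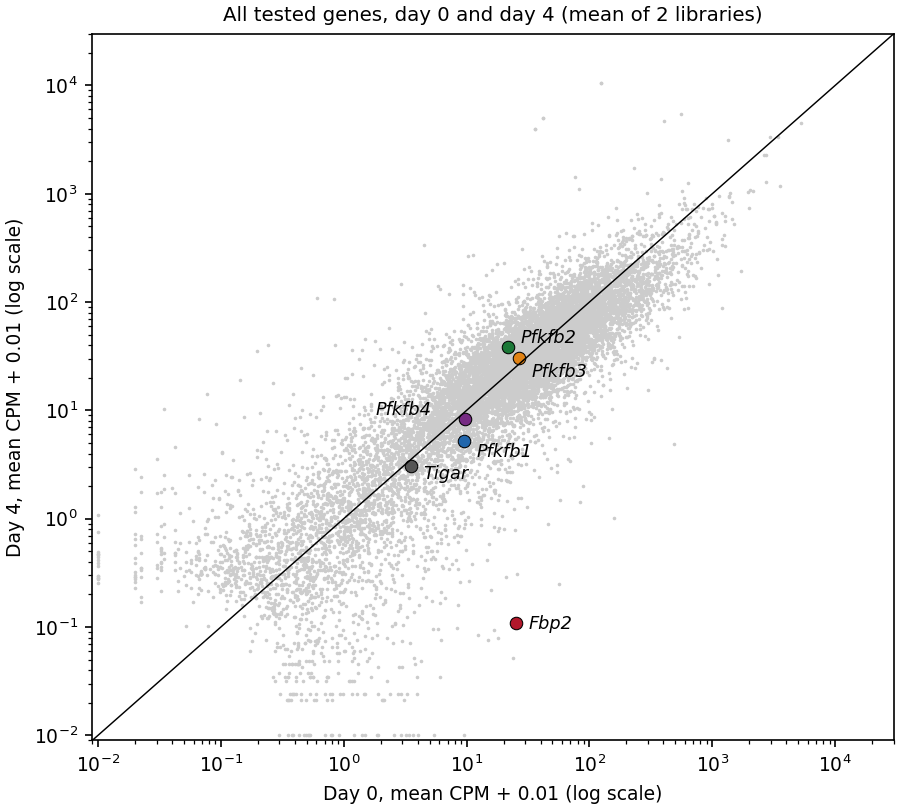
Each gray point is 1 of the 12381 tested genes, plotted by its mean CPM plus 0.01 at day 0 (horizontal, log axis) and day 4 (vertical, log axis), with the 6 tested members in color and a line of equality. Fbp2, at 25.1 and 0.0996 CPM, lies far below the line, whereas the other 5 lie close to it.

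The enzymes around this step were read from lists of 45 further genes, of which 37 were tested. Of these, 8 rose and 22 fell in the early step (81.1% called, background 62.5%), 6 rose and 2 fell in the late step (21.6% called, background 30.3%), and 11 rose and 21 fell in the net change (86.5% called, background 71.8%). The late split turned to 3 higher and 4 lower with total counts, and it was 0 higher and 1 lower without day 2 replicate 1, without day 2 replicate 2 or without day 4 replicate 2, and 10 higher and 5 lower without either day 0 library. Their median log2 fold change was -0.52 early, 0.02 late and -0.34 net.

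PFK-1, the enzyme that fructose 2,6-bisphosphate stimulates, fell in 2 of its 3 subunits in the net change (background 36.4% lower). Pfkl fell by 1.20 ± 0.12 (SE) on the log2 scale (edgeR adjusted p = 5.7e-06) and Pfkp had a log2 fold change of -1.50 ± 0.15 (edgeR adjusted p = 4.94e-06), whereas Pfkm had a log2 fold change of 0.22 ± 0.14 (edgeR adjusted p = 0.172). In CPM, Pfkl went from 286 ± 23.6 to 124 ± 14.4, Pfkp from 137 ± 17.5 to 48.5 ± 9.93, and Pfkm stood at 142 ± 29.1 and 165 ± 4.76 (± SD, 2 cultures). Of the glycolytic enzymes just before and after this step (Gpi1, the aldolases and Tpi1), 3 of 4 tested fell and none rose (75.0% called, background 71.8%). They were triose phosphate isomerase Tpi1 (log2 fold change -2.85 ± 0.13), aldolase Aldoa (-2.14 ± 0.19) and glucose phosphate isomerase Gpi1 (-1.63 ± 0.22).

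Of the other gluconeogenic genes, Pck1 and G6pc, which define the pathway in liver, had no count in any library. The 4 tested genes were all called in the net change, beside a background of 71.8%. The mitochondrial PEP carboxykinase Pck2 had a log2 fold change of -1.56 ± 0.12 (SE) and the glucose 6-phosphate transporter Slc37a4 of -0.74 ± 0.12. G6pc3, the ubiquitous glucose 6-phosphatase, was higher by 0.49 ± 0.17 and pyruvate carboxylase Pcx by 0.45 ± 0.16.

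Of 8 tested pentose phosphate genes 6 fell and 1 rose in the net change (87.5% called, background 71.8%). The 4 largest falls were in 6-phosphogluconate dehydrogenase Pgd (log2 fold change -2.08 ± 0.11, SE), transketolase Tkt (-1.49 ± 0.12), Pgls (-0.85 ± 0.14) and Rpia (-0.83 ± 0.10). In the family of histidine phosphatases to which TIGAR and the phosphatase part of the PFKFB enzymes belong, 4 of 5 tested genes fell and 1 rose (background 71.8% called). The glycolytic mutase Pgam1 fell by 3.65 ± 0.12 on the log2 scale, with the signaling protein Ubash3b at -1.55 ± 0.18 and mitochondrial Pgam5 at -0.62 ± 0.14. Bpgm, which makes the bisphosphoglycerate of red cells, rose by 1.23 ± 0.13, from 12.1 ± 1.19 to 28.4 ± 1.86 CPM (± SD, 2 cultures).

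On the list of kinases known to phosphorylate PFKFB enzymes, which includes kinase subunits, 7 of 13 tested genes rose and 4 fell in the net change. That is 84.6% called, beside a background of 71.8%. The non-catalytic AMP-activated kinase subunit Prkab2 rose by 1.88 ± 0.12 on the log2 scale (SE) and the protein kinase A catalytic subunit Prkaca by 1.26 ± 0.14. The ribosomal S6 kinase Rps6ka1 fell by 1.65 ± 0.12. Of the catalytic AMP-activated kinase subunits, Prkaa1 had a log2 fold change of -0.16 ± 0.105 (SE, edgeR adjusted p = 0.184) and Prkaa2 had no count. The median change of the list was 0.53, in contrast to medians of -0.80 for the pentose phosphate list and -1.89 for the fructose bisphosphate neighbors. Differences between lists were not tested.

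**Figure D5:**
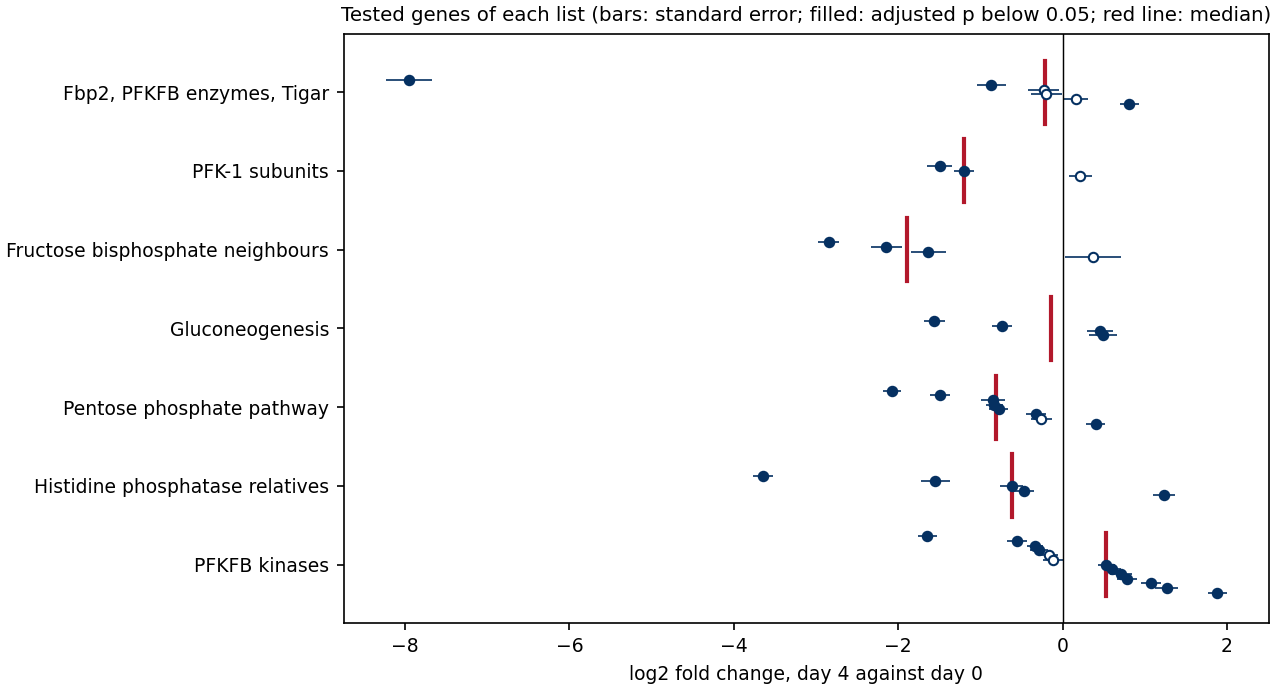
Points are net log2 fold changes, day 4 against day 0 (horizontal axis), of the tested genes of each list (rows), with bars for 1 standard error, filled points for an edgeR adjusted p below 0.05 and a red line at the list's median. Fbp2 at -7.95 lies to the left of every gene of the pathway lists, whose lowest value is -3.65 for Pgam1.

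For each tested member up to 3 genes nearest in profile were named, by root mean square distance of log2 CPM centered over the 6 libraries, among 10453 genes whose mean log2 CPM was 1 or more. Nearest to Fbp2 were Cd200r3, a receptor-like gene of mast cells and basophils (distance 0.29), Anxa2, a phospholipid-binding annexin (0.32), and Vim, the intermediate filament vimentin (0.38). Anxa2 went from 159 to 2.78 to 0.996 CPM and Vim from 491 to 8.19 to 4.86 CPM over days 0, 2 and 4. Cd200r3 went from 9.57 to 0.104 CPM and had no count at day 4. Nearest to Pfkfb2 were Lrba (0.02), the erythroid repressor Gfi1b (0.02) and Pcgf3 (0.03), and Gfi1b rose from 64.2 to 115 CPM. The genes nearest to Pfkfb1 were Krtcap2, Phpt1 and Ino80c, to Pfkfb3 Adpgk, Desi2 and Mettl4, to Pfkfb4 Gm6623 and Dmac1, and to Tigar Rps19, Tmem41a and Sema4c. Distances were 0.04 to 0.06 for these, and with 6 libraries in 3 days many genes share such simple profiles.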

How the data were processed

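mRNA-seq of 6 MEL cell libraries (days 0, 2 and 4 in 2% DMSO, 2 cultures each, grouped by the labels) was analyzed. The authors made stranded poly(A) libraries, trimmed reads with cutadapt, aligned them to mm10 with TopHat and deposited raw counts per RefSeq transcript, without normalization or pooling. HTSeq is named in the submitters' processing notes. The use of strand in counting and the annotation release are not given in the sources used here. Reads on no feature were left out, and they made 50.5% to 58.4% of the sum of such reads and the counts on transcripts. Overlapping transcripts of a gene are each counted, so that they are not separate measurements.

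Symbols and coordinates came from RefSeq (GRCm38.p6) and GENCODE by accession. A tie between 3 Pfkfb3 transcripts, of 2216, 4756 and 2163 bases, was broken by accession order. edgeR 4.0.16 (R 4.3.3) was run on the counts with TMM factors, filterByExpr (18351 transcripts kept) and 1 quasi-likelihood fit over all libraries. Adjustment followed Benjamini and Hochberg over every kept transcript, and a call is an adjusted p below 0.05. The standard error is the fold change divided by the root of F. The fit was tested on simulated data. Centered profiles used log2 CPM with a prior count of 2. Intervals and floors cover counting error only. P-values set each change against the spread between cultures of a day, pooled over the 3 days and moderated over transcripts. A fit without 1 library left 1 culture on that day, so its calls rest on the spread of the other days.

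The members and lists were chosen with earlier results of these data known. Named genes are the 7 members, up to 4 called genes per list with the largest day 4 change (all of a list with 3 or fewer), and the 3 nearest profiles of each tested member, except that some genes are not reported here. The markers, Pck1, G6pc, Prkaa1, Prkaa2, Alas2, Gm29427 and Platr31 and the Gpi1 and Aldoa replicates lie outside that rule and were picked once their values had been seen. Alternatives comprised DESeq2 1.42.0, other normalizations and filters, a fit of only the days compared, a replicate block, a size limit of 1 on the log2 fold change, other transcripts per gene, other lengths and leaving out each library.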

Additional observations from a re-analysis of the deposited data

Results flagged for a closer look

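The change of Fbp2 differed between the step from day 0 to day 2 and that from day 2 to day 4, by 5.39 ± 0.85 (SE) on the log2 scale (edgeR quasi-likelihood test, adjusted p = 0.00128), with log2 fold changes of -6.67 over the first step and -1.28 over the second. The value of the second step rests on 8 and 14 counts in the day 2 libraries and 4 in each day 4 library. Over all tested genes 30.0% had a called difference between steps.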

How the results depend on the processing

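Of the values for single genes, 331 kept their direction and side of the threshold, 8 newly passed it, 3 no longer passed and 12 changed sign. The causes were not tested. The reversed values were all close to 0. For Pfkfb4 in the late step they were -0.0832 with total counts, -0.0035 with no filter, -0.0008 with only the 2 days compared, and the range was -0.0961 to 0.0862 when single libraries were left out. Leaving out single libraries gave Pfkfb4 a range of -0.4997 to 0.0772 early, -0.5005 to 0.0763 net and -0.078 to 0.4989 for the difference between steps, which was -0.0473 with total counts. The net change of Pfkfb3 ranged from -0.0434 to 0.3873. Day 0 replicates 1 and 2 gave the ends of all these ranges against day 0. A size limit of 1 on the log2 fold change left 1 member, Fbp2, in the early step and 1 in the net change, and 14, 0 and 15 pathway genes in the early, late and net comparisons. With only the 2 days compared, 15 pathway genes were called in the late step in place of 8, and leaving out single libraries gave 1 to 15, with 15 without either day 0 library and 1 without day 2 replicate 1, day 2 replicate 2 or day 4 replicate 2. A lone library was assumed to vary like the others. For the difference between steps 2 members were called with total counts, and leaving out single libraries gave 1 to 3, with 3 only without day 0 replicate 1 (Fbp2, Pfkfb2 and Pfkfb3). Total counts moved the median change of all genes to 0.207 early and 0.0982 net.

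The PFKFB shares moved with the length and transcript used. Without division by length, Pfkfb1, Pfkfb2, Pfkfb3 and Pfkfb4 took 14.0%, 32.3%, 39.5% and 14.1% at day 0 and 6.38%, 46.8%, 36.8% and 10.1% at day 4. With coding length they took 16.1%, 32.0%, 36.5% and 15.4% at day 0 and 7.41%, 46.9%, 34.5% and 11.2% at day 4. With the transcript of the lowest mean count they took 29.9%, 25.4%, 29.8% and 15.0% at day 0 and 16.3%, 37.5%, 33.4% and 12.8% at day 4.

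Replicate numbers shared across days did not pair the libraries, as the deviations of same-numbered libraries correlated by 0.0316, 0.0451 and 0.0791. The replicate block changed no call among the members, with 3 called early, 0 late and 3 net.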

Other observations

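The genes around Fbp2 on chromosome 13 did not all move its way. Of 8 tested genes within 500 kb, 3 were lower and 2 higher at day 4 than at day 0 (edgeR), with log2 fold changes from -1.52 to 3.33. Over all tested genes 36.4% were lower and 35.5% higher. The aminopeptidase gene Aopep, 106 kb away and named after its values were seen, had a net log2 fold change of -0.98.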
